A study of Mus musculus with 8 samples.

Results

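The genes described here are 10 genes of the last steps of epidermal differentiation, most of them encoding enzymes: the transglutaminases Tgm1 and Tgm3, the lipoxygenase Alox12b, the envelope protein gene Cnfn, the aspartic protease Asprv1, the caspase Casp14 and the kallikreins Klk5, Klk6, Klk7 and Klk8. All 10 were found by a single gene symbol in the platform annotation, out of 18193 genes named that way on the array. They were covered by 12 probe sets, and the probe set with the highest mean over the 8 arrays stood for each gene. They were chosen by their differences between CSA and DMSO at day 3 and day 6 in these same arrays, so those differences are given as a description, with no test.

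The series followed mouse cells of C57BL/6 background during induced reprogramming. The system is a secondary one, where doxycycline turns on the factors Oct4, Sox2, Klf4 and Myc (OSKM). There were 4 groups of 2 biological repeats: CSA at day 6, DMSO at day 6, CSA at day 3 and DMSO at day 3. CSA, cyclosporin A, inhibits the phosphatase calcineurin and is labelled as 10 mM. DMSO is its solvent. Every group received doxycycline, labelled as 2 mg per ml, in a medium for embryonic stem cells (serum at 15%, leukemia inhibitory factor at 100 units per ml), so the DMSO cells were reprogramming too. Both doses are given in the units the labels write, and whether micromolar and microgram were meant was not settled. The labels call all samples reprogramming cells and give neither the starting cell type nor the age of a donor animal. The comparison of CSA with DMSO asked what calcineurin-NFAT inhibition does to gene expression at each day.

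In the outer epidermis keratinocytes die into flat corneocytes. Transglutaminases cross-link proteins such as involucrin, loricrin and the small proline-rich proteins into a cornified envelope, to which lipids made with the help of 12R-lipoxygenase are bound. Asprv1 and caspase-14 act on filaggrin, the first on its precursor and the second on its breakdown. Kallikreins are secreted serine proteases that digest the junctions between corneocytes, so that these are shed, and the inhibitor encoded by Spink5 restrains them.

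Promoter sequences are shown for Asprv1, whose difference between CSA and DMSO was the largest relative to its error, and for Klk8, Klk7 and Klk6. These kallikreins are neighbours in the RefSeq annotation, with Klk5 next in line, and differed in direction. Each sequence is the 250 bases before a RefSeq start in GRCm38.p6, 5′ to 3′ on the gene's strand. Capitals mark matches on either strand to any of 7 motifs: the NFAT core GGAAA, the KLF box CACCC, the TATA box TATAAA, the AP-1 motif TGANTCA, the GRHL motif AACCGG, the CHOP-ATF4 motif TGATGCA and the C/EBP motif TTGCNNA.
Asprv1, chr6:86627924-86628173, plus strand: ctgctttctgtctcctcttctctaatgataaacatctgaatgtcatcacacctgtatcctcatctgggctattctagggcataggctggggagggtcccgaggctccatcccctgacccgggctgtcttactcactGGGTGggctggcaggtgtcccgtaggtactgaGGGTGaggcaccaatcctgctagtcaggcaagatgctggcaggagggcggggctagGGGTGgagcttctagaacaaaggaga
Klk8, chr7:43797327-43797576, plus strand: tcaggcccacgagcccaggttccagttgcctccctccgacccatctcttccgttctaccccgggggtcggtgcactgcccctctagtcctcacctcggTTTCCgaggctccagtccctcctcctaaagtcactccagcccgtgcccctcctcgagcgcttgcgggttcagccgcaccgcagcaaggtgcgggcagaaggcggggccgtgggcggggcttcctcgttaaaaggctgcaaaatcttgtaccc
Klk7, chr7:43811044-43811293, plus strand: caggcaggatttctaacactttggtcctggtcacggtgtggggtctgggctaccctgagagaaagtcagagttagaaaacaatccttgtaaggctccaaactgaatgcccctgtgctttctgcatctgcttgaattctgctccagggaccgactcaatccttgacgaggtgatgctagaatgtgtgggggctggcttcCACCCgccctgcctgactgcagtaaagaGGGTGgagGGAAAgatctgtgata
Klk6, chr7:43824294-43824543, plus strand: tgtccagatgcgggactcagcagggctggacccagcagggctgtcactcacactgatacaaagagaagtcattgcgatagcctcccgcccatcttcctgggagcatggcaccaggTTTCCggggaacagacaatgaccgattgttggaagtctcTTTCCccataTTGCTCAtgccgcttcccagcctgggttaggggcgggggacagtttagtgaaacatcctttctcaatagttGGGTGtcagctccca
The 10 genes had 12 such windows, since Klk6 and Tgm1 have 2 starts each. GGAAA was in 8 of the 12, against 55.6% of all 32851 RefSeq windows, and was missing from those of Asprv1, Alox12b and Casp14 and from the second one of Klk6. CACCC was in 10 of 12, against 52.0%. TTGCNNA was in 3 of 12 (32.8% of all windows), and TATAAA was in 1, that of Tgm3, 28 bases before the start (12.4% of all windows). The AP-1, GRHL and CHOP-ATF4 motifs were in 0 of the 12, and in 6.75%, 5.62% and 2.68% of all windows. No 2 matches overlapped in the members' windows. The Klk8 window had 65.2% G and C and 18 CpG sites, against medians of 52.4% and 6 over all windows. The Asprv1 window had 56.4% and 4 CpG sites. These matches describe the letters of the windows and no binding was measured.

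Arrays of a group correlated at 0.968 to 0.974 over the 27022 tested probe sets, and no array stood apart. A probe set was tested where its mean log2 signal was at or above the 40th percentile, 5.37. Of the 10 genes 9 passed. Casp14, with a mean of 6.33, was the nearest above that line, and Klk5, with 3.66, was the 1 below it. Differences are in log2 signal, and values after ± are limma's standard errors unless called SD. For these errors limma pooled the spread between the 2 arrays of a group over the 4 groups and drew it toward that usual at the signal level. For genes with wide repeats the error is thus smaller than the spread of their own arrays over the 4 groups gives. Examples are Klk7, with an SD of 2.12 in DMSO cells at day 3, and Casp14, with an SD of 1.45 in CSA cells at day 3. As 1 spread serves all groups, the error can also be too wide for groups with close repeats. For Klk7 at day 6 the SDs were 0.09 in CSA and 0.17 in DMSO cells. With total RNA of a whole culture, fewer cells of a type and less RNA per cell cannot be told apart. Markers of epidermal cells were uneven: the basal keratin Krt14 lay at 11.6 to 12.6 on every array, while its partner Krt5, the regulator Trp63, filaggrin (Flg) and Spink5 had means below the line. The Krt14 probe set is of a type that can read several genes. Krt5 and Trp63 were just below the line, with means of 5.27 and 5.28, and Trp63 lay at 5.60 to 6.23 on the day 6 arrays. Flg and Spink5 had means of 4.51 and 3.37. Several marker lists moved with the groups. The summed linear signal of 11 basal keratinocyte genes was 21868 and 21951 in CSA and 22164 and 22552 in DMSO at day 6, and 20376 and 21553 in CSA against 16657 and 17294 in DMSO at day 3. That of 12 simple epithelial genes was 34433 and 34581 in CSA against 45702 and 47986 in DMSO at day 6, and 28904 and 29203 against 24176 and 25450 at day 3. That of 12 fibroblast genes was 61823 and 64105 in CSA and 62869 and 63608 in DMSO at day 6, and 47109 and 47973 against 50353 and 53426 at day 3. At day 6 limma called 0 simple epithelial markers higher and 6 lower of 11 tested (8 at an unadjusted p under 0.05), and at day 3 it called 4 higher and 1 lower (10 unadjusted). Over all tested probe sets it called 5.11% higher and 4.56% lower at day 6, and 5.35% and 4.23% at day 3. Of 8 basal markers tested, 1 was higher and 0 lower at day 6 (6 at an unadjusted p under 0.05), and 3 were higher and 0 lower at day 3 (4 unadjusted). Their median difference was -0.21 at day 6 and 0.16 at day 3. The sum of 8 stress and suprabasal keratins was 11494 and 11971 in CSA against 11143 and 11466 in DMSO at day 6, and 9465 and 9804 against 6813 and 7447 at day 3. For 13 reprogramming and pluripotency genes it was 2083 and 2173 in CSA against 2807 and 3217 in DMSO at day 6, and 2273 and 2520 against 2054 and 2203 at day 3. Of 7 of them tested, limma called 0 higher and 1 lower at day 6 (2 at an unadjusted p under 0.05). At day 3 it called 1 higher and 0 lower (4 unadjusted). The call at day 6 was Pou5f1, with a difference of -1.07 ± 0.18 (adjusted p = 0.00435). That at day 3 was Alpl, at 1.92 ± 0.29 (adjusted p = 0.00217). For 8 macrophage genes the sum was 786 and 836 in CSA against 667 and 704 in DMSO at day 6, and 513 and 562 against 549 and 585 at day 3. Of 5 macrophage markers tested, 0 were called at either day (0 unadjusted). Of 12 fibroblast markers tested, 1 was higher and 1 lower at day 6 (5 unadjusted), and 1 higher and 2 lower at day 3 (4 unadjusted). No marker was at 0 on any array. The part of these shifts in the values below was not tested.

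At day 6, CSA arrays were higher than DMSO arrays for Asprv1, Klk6, Cnfn and Klk7 and lower for Klk8, Tgm1, Alox12b and Tgm3, in each case with both CSA arrays on 1 side of both DMSO arrays. At day 3 they were higher for Asprv1, Alox12b and Klk7 and lower for Tgm1, Cnfn and Klk8. Asprv1 and Klk7 were higher, and Tgm1 and Klk8 lower, at both days, while Cnfn and Alox12b lay on opposite sides at the 2 days. So 4 of the 9 tested genes lay wholly above and 4 wholly below at day 6, where 26.4% and 27.4% of all tested probe sets did. At day 3 the counts were 3 and 3, against 25.1% and 26.5%. Nothing is read from these counts, since the genes were chosen on this contrast.

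**Figure D1:**
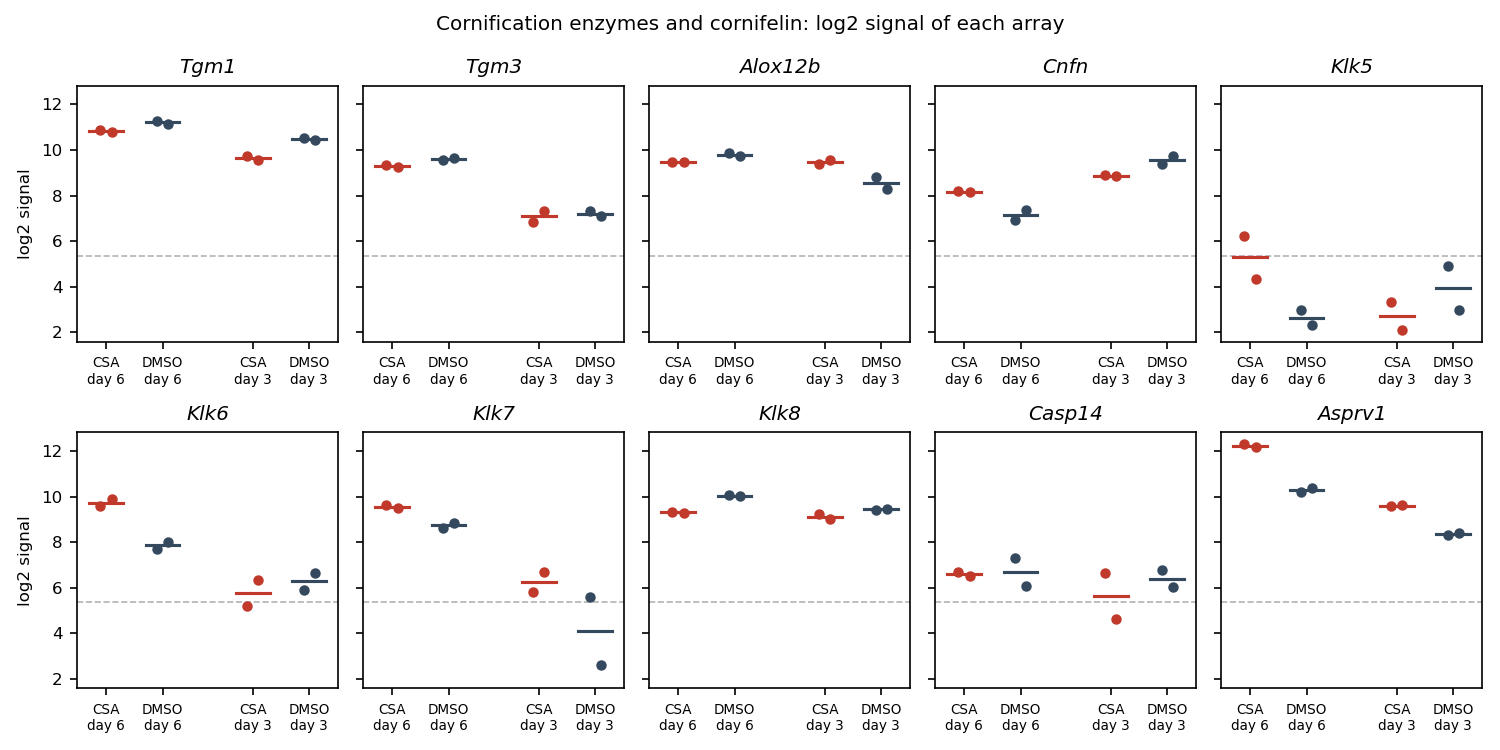
Log2 signal (vertical axis) of the 10 genes on each of the 8 arrays, with CSA in red left of DMSO in dark blue, day 6 left of day 3. Points are arrays, bars are means of 2 arrays, and the dashed line is the level of 5.37 used as the filter on a gene's mean. Asprv1 shows the 4 groups apart, while Klk5 lies below the line on 7 of 8 arrays.

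Tgm1, the membrane-bound transglutaminase of the upper epidermis, had log2 signals of 10.86 and 10.79 in CSA cells and 11.28 and 11.16 in DMSO cells at day 6. At day 3 it had 9.75 and 9.58 in CSA cells and 10.52 and 10.43 in DMSO cells. CSA cells were lower at both days, with no overlap. The difference was -0.39 ± 0.09 at day 6 and -0.81 ± 0.09 at day 3, or 1.31-fold and 1.75-fold lower. The Tgm1 probe set is of a type that can read several transcripts of the gene, and no other was on the array.

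Tgm3, a transglutaminase of epidermis and hair that is activated by proteolysis, had 9.35 and 9.23 in CSA cells against 9.54 and 9.67 in DMSO cells at day 6. At day 3 it had 6.84 and 7.34 in CSA cells and 7.34 and 7.09 in DMSO cells, which overlapped. The differences were -0.31 ± 0.20 and -0.12 ± 0.20, the second smaller than its error. The other Tgm3 probe set gave 0.08 ± 0.30 at day 6 and -0.37 ± 0.30 at day 3, so the probe sets of Tgm3 differed in sign at day 6.

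Cnfn, which encodes cornifelin, a cysteine-rich protein of the envelope, had 8.19 and 8.17 in CSA cells and 6.92 and 7.36 in DMSO cells at day 6. At day 3 it had 8.89 and 8.85 in CSA cells and 9.41 and 9.74 in DMSO cells. CSA cells were thus higher at day 6, by 1.04 ± 0.19 (2.05-fold), and lower at day 3, by a difference of -0.71 ± 0.19. The CSA arrays of a day lay within 0.1 of each other, closer than the DMSO arrays did.

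Alox12b, the lipoxygenase that oxidises ceramide-bound linoleate for the lipid envelope, had 9.49 and 9.46 in CSA cells and 9.87 and 9.72 in DMSO cells at day 6. At day 3 it had 9.38 and 9.57 in CSA cells and 8.82 and 8.30 in DMSO cells. It was higher in CSA cells at day 3, by 0.91 ± 0.16 (1.88-fold), and lower at day 6, with a difference of -0.33 ± 0.16. The 4 CSA arrays stayed between 9.38 and 9.57 over both days, and the change of sign lay in the DMSO arrays.

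Asprv1 encodes the retroviral-like aspartic protease of the granular layer, which cuts profilaggrin. Its signals were 12.30 and 12.17 in CSA cells and 10.21 and 10.37 in DMSO cells at day 6, and 9.58 and 9.63 in CSA cells and 8.32 and 8.42 in DMSO cells at day 3. The difference was 1.94 ± 0.10 at day 6 and 1.23 ± 0.10 at day 3, or 3.84-fold and 2.35-fold. Repeats lay within 0.2 of each other in every group. Leaving out any 1 array of the day kept the difference between 1.86 and 2.02 at day 6 and between 1.18 and 1.28 at day 3.

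Casp14, the caspase of filaggrin breakdown, did not separate the groups on the probe set that stood for it. It had 6.71 and 6.53 in CSA cells and 7.30 and 6.06 in DMSO cells at day 6, and 6.67 and 4.62 in CSA cells and 6.76 and 6.04 in DMSO cells at day 3. The differences, -0.06 ± 0.63 and -0.76 ± 0.63, were within their errors or close to them. Its other probe set, with a mean of 4.09, was below the filter and gave -1.39 at day 6. There it had 4.28 and 3.10 in CSA cells and 5.31 and 4.85 in DMSO cells, with no overlap, while its day 3 arrays overlapped. The probe set that stood for Casp14 is of a type that can read several genes, so its signal may not be that of Casp14 alone.

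Klk8, a trypsin-like kallikrein also known as neuropsin, had 9.33 and 9.27 in CSA cells and 10.07 and 10.01 in DMSO cells at day 6, and 9.22 and 9.01 in CSA cells and 9.41 and 9.46 in DMSO cells at day 3. It was lower in CSA cells at both days, with differences of -0.73 ± 0.11 and -0.32 ± 0.11. Its window is the one richest in G and C of those printed.

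Klk7 is the chymotrypsin-like kallikrein that cuts corneodesmosin. It had 9.61 and 9.48 in CSA cells and 8.62 and 8.86 in DMSO cells at day 6, and 5.81 and 6.71 in CSA cells and 5.61 and 2.61 in DMSO cells at day 3. The difference was 0.80 ± 0.70 at day 6, an error that carries the wide arrays of day 3. The day 6 repeats were close, with SDs of 0.09 in CSA and 0.17 in DMSO cells. The 2.15 ± 0.70 of day 3 rested on 1 DMSO array: it was 0.65 without DMSO replicate 2 and 3.65 without DMSO replicate 1.

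Klk6, another trypsin-like kallikrein, had 9.57 and 9.90 in CSA cells and 7.72 and 7.99 in DMSO cells at day 6. At day 3 it had 5.21 and 6.35 in CSA cells and 5.90 and 6.67 in DMSO cells. The difference at day 6 was 1.88 ± 0.37, or 3.69-fold, and the arrays of day 3 overlapped at -0.50 ± 0.37.

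Klk5, the trypsin-like kallikrein that activates Klk7, was dim. It had 6.25 and 4.33 in CSA cells and 2.98 and 2.32 in DMSO cells at day 6, and 3.32 and 2.10 in CSA cells and 4.93 and 3.00 in DMSO cells at day 3. The difference of 2.64 at day 6 shrank to 0.63 with all signals below 5 set to 5, so its size depended on signals near background.

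**Figure D2:**
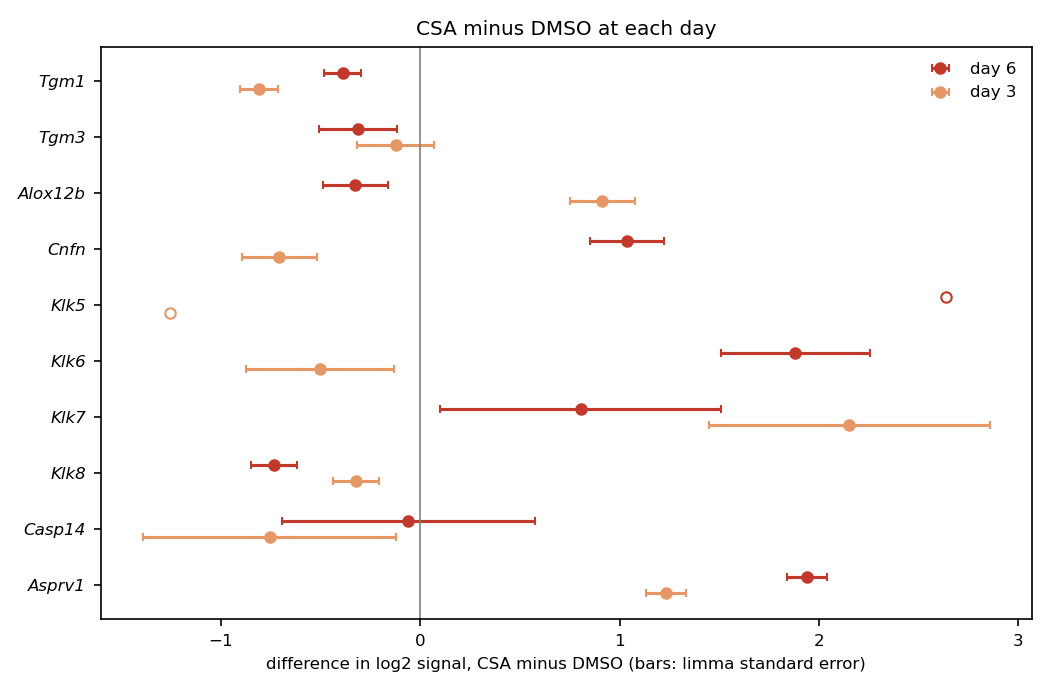
Difference in log2 signal, CSA minus DMSO (horizontal axis), for each gene at day 6 (dark red) and day 3 (orange), with limma's standard error as bars. Open circles without bars are Klk5, which was below the filter. Asprv1 lies right of 0 at both days, Tgm1 and Klk8 left of 0 at both, and Cnfn and Alox12b on opposite sides.

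Klk8, Klk7, Klk6 and Klk5 are consecutive protein-coding genes, and the rest of the kallikrein family flanks them. Of 22 other tissue kallikreins listed, 15 were on the array and 6 were tested. At day 6 Klk12 rose by 0.93 ± 0.19 (adjusted p = 0.0122) and Klk11 fell, with a difference of -0.59 ± 0.14 (adjusted p = 0.0215), where 5.11% of all tested probe sets rose and 4.56% fell. Klk12 had 8.77 and 8.61 in CSA cells and 7.80 and 7.74 in DMSO cells, and Klk11 had 9.37 and 9.34 in CSA cells and 9.92 and 9.95 in DMSO cells. Klk10, Klk13, Klk1 and Klk1b21 did not pass, with values between -0.40 and 0.13. Leaving out any 1 array of day 6 ended both calls (adjusted p = 0.05 to 0.0792 for Klk12 and 0.0767 to 0.133 for Klk11). At day 3 limma called 0 of the 6, with 0 at an unadjusted p under 0.05. In chromosomal order at day 6, Klk12 was higher, Klk11 and Klk8 were lower, and Klk7 and Klk6 were higher in CSA cells.

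**Figure D3:**
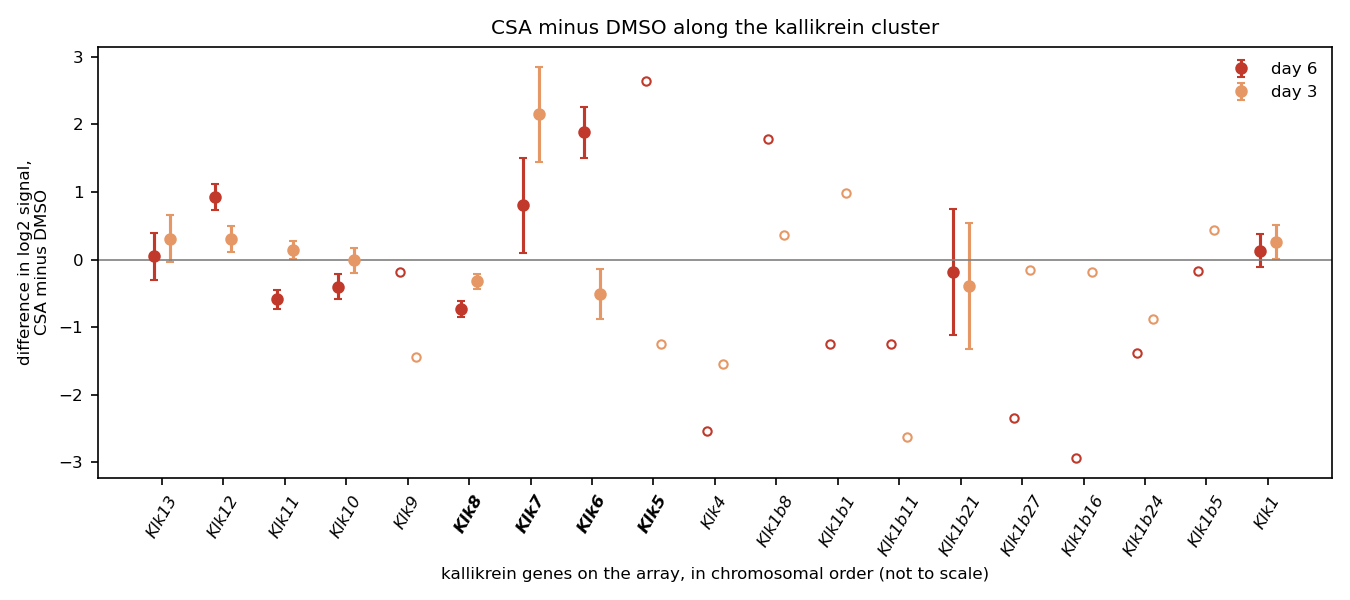
Difference in log2 signal, CSA minus DMSO (vertical axis), of the kallikrein genes on the array in chromosomal order, not to scale, at day 6 (dark red) and day 3 (orange). Bars are limma's standard errors, open circles are genes below the filter, and Klk8, Klk7, Klk6 and Klk5 are in bold. Klk8 at -0.73 and Klk6 at 1.88 lie on opposite sides at day 6.

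The change between the days was not what the genes were chosen on, though it shares arrays with the contrasts that were. Klk7 passed the filter only through its day 6 arrays, with a mean in DMSO cells at day 3 below the filter level, so it is kept out of these counts, a choice made after its values were seen. In CSA cells 4 of the other 8 tested genes rose and 1 fell between the days, where 18.1% of all tested probe sets rose and 12.8% fell. In DMSO cells 6 rose and 1 fell, where 23.8% rose and 16.8% fell. The medians of the 8 were 1.07 in CSA and 0.99 in DMSO cells, against 0.12 and 0.10 over all tested probe sets.

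Asprv1 rose by 2.63 ± 0.10 in CSA cells (adjusted p = 6.34e-08) and by 1.92 ± 0.10 in DMSO cells (adjusted p = 2.2e-07). Klk6 rose by 3.96 ± 0.37 in CSA cells, 15.5-fold (adjusted p = 2.23e-05), and by 1.57 ± 0.37 in DMSO cells, 2.97-fold (adjusted p = 0.00551). Klk7 differed by 3.28 ± 0.70 in CSA cells and by 4.63 ± 0.70 in DMSO cells, given with no test. The value in DMSO cells was 3.13 without DMSO replicate 2 of day 3 and 6.13 without replicate 1. All day 6 arrays of these genes lay above all day 3 arrays of the same treatment.

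Both transglutaminases also rose. Tgm3 rose by 2.20 ± 0.20 in CSA cells (adjusted p = 1.55e-05) and by 2.39 ± 0.20 in DMSO cells (adjusted p = 3.94e-06), and its other probe set rose too, by 1.59 ± 0.30 (adjusted p = 0.00221) and 1.15 ± 0.30 (adjusted p = 0.0098). Tgm1 rose by 1.16 ± 0.09 in CSA cells (adjusted p = 9.28e-06) and by 0.74 ± 0.09 in DMSO cells (adjusted p = 8.72e-05).

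Alox12b and Klk8 passed in DMSO cells, with rises of 1.24 ± 0.16 (adjusted p = 0.00011) and 0.60 ± 0.11 (adjusted p = 0.0015). In CSA cells Alox12b was at 0.00 ± 0.16 (adjusted p = 0.997) and Klk8 at 0.19 ± 0.11 (adjusted p = 0.25). The difference between the treatments is that between the CSA effects, on which the genes were chosen, and was not tested.

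Cnfn went the other way. It fell by 2.43 ± 0.19 in DMSO cells, 5.4-fold (adjusted p = 2.57e-06), and by 0.69 ± 0.19 in CSA cells, 1.61-fold (adjusted p = 0.0158). The call in CSA cells ended when any 1 CSA array was left out (adjusted p = 0.0558 to 0.0828) and without the trend (0.0521). Casp14 passed in neither treatment, at 0.97 ± 0.63 (adjusted p = 0.279) in CSA and 0.28 ± 0.63 (adjusted p = 0.763) in DMSO cells. Without CSA replicate 1 of day 3 the value in CSA cells was 2.00 and passed (adjusted p = 0.0428), and without replicate 2 it was -0.049.

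**Figure D4:**
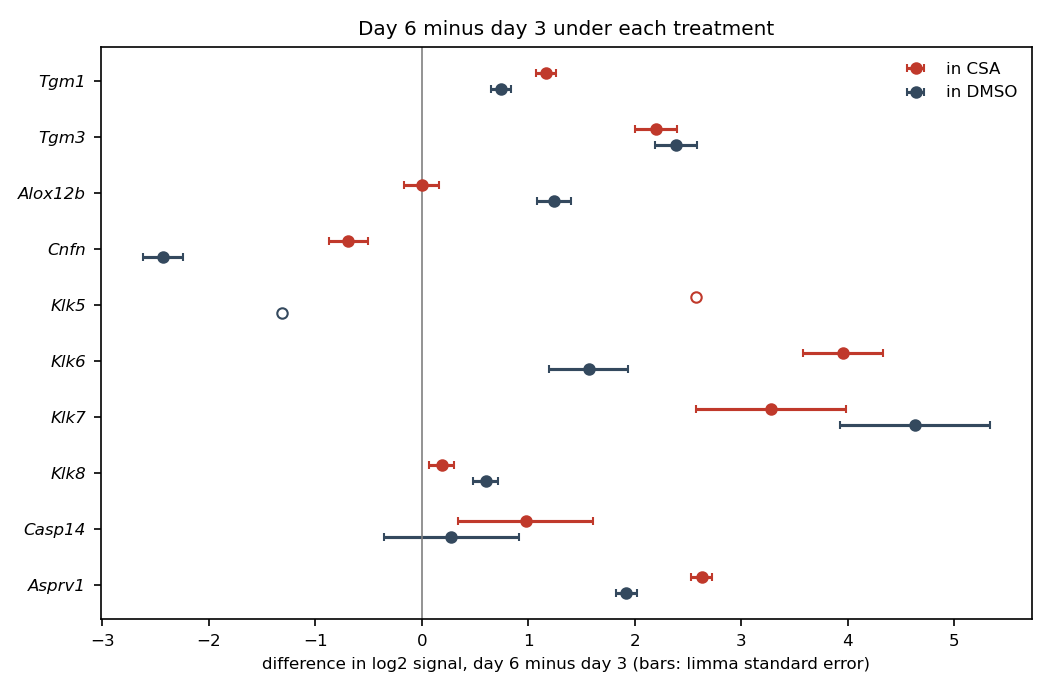
Difference in log2 signal, day 6 minus day 3 (horizontal axis), in CSA cells (red) and DMSO cells (dark blue), with limma's standard error as bars. Open circles are Klk5, below the filter. Cnfn lies left of 0 under both treatments, Asprv1, Klk6, Klk7, Tgm1 and Tgm3 right of 0 under both, and Alox12b at 0.00 in CSA and 1.24 in DMSO cells.

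The proteins these enzymes act on were looked at in a list of 59 names of envelope substrates and structural proteins of the cornified layer, 44 of which were on the array and 33 tested. At day 6, 20 rose and 2 fell under CSA, where 5.11% of tested probe sets rose and 4.56% fell, and the median was 1.92. The count was not cleared of genes that passed the filter through the CSA arrays of day 6. Lce3c, which is in it, had a mean of 9.87 there and 4.72 to 5.69 in the other groups. At day 3, 1 rose and 2 fell, where 5.35% rose and 4.23% fell, and the median was 0.25. Late cornified envelope genes were known to move in these data when the list was written. Involucrin (Ivl), a main transglutaminase substrate, had 8.14 and 8.57 in CSA cells and 5.30 and 6.68 in DMSO cells at day 6 and rose by 2.37 ± 0.41 (adjusted p = 0.00422). Lce1d rose by 3.92 ± 0.31, Lce1f by 3.27 ± 0.34, Lce1a1 by 3.16 ± 0.26 and the suprabasal keratin Krt1 by 1.62 ± 0.27. The probe sets of Lce1d and Lce1a1, like some others of the Lce family in the list, are of a type that can read several genes. The 20 that rose may therefore not all be separate genes. Krt1 also rose at day 3, by 1.46 ± 0.27 (adjusted p = 0.00599, and 0.0525 without CSA replicate 1). Loricrin (Lor), at 0.79 ± 0.40, and the keratin Krt10, at 0.86 ± 0.28, did not pass at day 6 (adjusted p = 0.266 and 0.077). Suprabasin (Sbsn) rose at day 6 by 0.43 ± 0.08 and fell at day 3, with a difference of -0.58 ± 0.08. Krtdap was lower at both days, at -0.57 ± 0.07 at day 6 and -0.59 ± 0.07 at day 3. With a filter at the 60th percentile 9 genes of the list rose at day 6, and without the trend 12 did. Without the trend the day 6 calls of Ivl, Krt1 and Sbsn ended (adjusted p = 0.0723, 0.0598 and 0.1), as did the day 3 calls of Krt1, Sbsn and Krtdap (0.0798, 0.0615 and 0.0522). Leaving out 1 array of day 6 left 13 to 17.

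Of the other transglutaminases 2 of 6 on the array were tested. Tgm2, the widely expressed tissue transglutaminase, fell at both days, with differences of -0.65 ± 0.06 at day 6 (adjusted p = 0.000118) and -0.62 ± 0.06 at day 3 (adjusted p = 0.000193). These are from the brightest of its 6 probe sets, which is of a type that can read several genes. Values of its other probe sets are not given here. Tgm4, known from prostate, rose by 2.39 ± 0.57 at day 6 (adjusted p = 0.0227), with 6.40 and 6.19 in CSA cells and 3.13 and 4.68 in DMSO cells, both DMSO signals below the filter level. The call ended without any of 3 of the day 6 arrays, without the trend and with only the 4 arrays compared (adjusted p = 0.0703 to 0.102). Its size was 1.62 to 3.16 without 1 array and 1.19 with a pseudocount of 32.

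Other proteases of the epidermis went both ways. Of 11 tested, 2 rose and 2 fell at day 6, where 5.11% and 4.56% of all tested probe sets did. At day 3, 4 rose and 0 fell (6 of the 11 below 0.05 unadjusted), where 5.35% and 4.23% did. Without 1 array, 1 or 2 rose and 1 or 2 fell at day 6, and 2 to 5 rose and 0 or 1 fell at day 3. St14, which encodes matriptase, a membrane protease upstream of epidermal proteolysis, had 11.0 and 11.1 in CSA cells and 11.9 and 11.9 in DMSO cells at day 6, and 10.5 and 10.4 in CSA cells and 9.95 and 9.76 in DMSO cells at day 3. It fell at day 6, with a difference of -0.83 ± 0.09 (adjusted p = 0.00027), and rose at day 3 by 0.60 ± 0.09 (adjusted p = 0.00204, and 0.0626 without the trend). The difference between these effects was -1.43 ± 0.13 (adjusted p = 0.000781), where 4.23% of tested probe sets passed that test in either direction. Without the trend that call ended, as limma then called 0 of all probe sets (4287 at an unadjusted p under 0.05, smallest adjusted p = 0.077). The lysosomal cathepsins Ctsl and Ctsd rose at both days, by 0.74 ± 0.09 and 0.29 ± 0.06 at day 6 and by 0.44 ± 0.09 and 0.34 ± 0.06 at day 3. Blmh, whose product trims filaggrin peptides, rose at day 3 by 0.50 ± 0.08. Without the trend the calls of Ctsl, Ctsd and Blmh ended, and those of Ctsl at day 3 and Ctsd at both days also ended without 1 or another array.

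Inhibitors of these proteases rose in 4 of 10 and fell in 1 at day 6, against 5.11% and 4.56% of all tested probe sets. They rose in 2 and fell in 0 at day 3 (4 below 0.05 unadjusted), against 5.35% and 4.23%. Without 1 array, 2 to 4 rose at day 6 and 0 or 1 at day 3. Cst6, which encodes cystatin M/E, an inhibitor of cathepsins in the epidermis, had 9.86 and 10.2 in CSA cells and 8.06 and 8.40 in DMSO cells at day 6. It rose by 1.79 ± 0.28 (adjusted p = 0.0025, and 0.0623 without the trend) and was at 0.16 ± 0.28 at day 3. Serpinb6a rose by 0.55 ± 0.06 at day 6. Spint2, an inhibitor of matriptase, fell at day 6, with a difference of -0.65 ± 0.08 (adjusted p = 0.000407), and rose at day 3 by 0.36 ± 0.08 (adjusted p = 0.0126). That of day 3, and the rise of Cstb by 0.31 ± 0.08 at day 3 (adjusted p = 0.0421), ended without either CSA array of that day (0.0768 to 0.261). Spint2 and St14 had the same order of groups. The Spint2 values are from the brighter of its 2 probe sets, which is of a type that can read several genes.

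In the list of lipid barrier genes, to which Alox12b belongs by function, 4 of 19 rose and 1 fell at day 6, against 5.11% and 4.56% of all tested probe sets. At day 3, 4 rose and 0 fell (5 below 0.05 unadjusted), against 5.35% and 4.23%. Without 1 array, 2 or 3 rose and 0 or 1 fell at day 6, and 2 to 4 rose at day 3. The lipase cofactor Abhd5 rose by 0.62 ± 0.08 at day 6, the ceramidase Asah1 by 0.43 ± 0.06 at day 6 and 0.27 ± 0.06 at day 3, and the cholesterol sulfotransferase Sult2b1 by 0.56 ± 0.14 at day 6 and 0.996 ± 0.14 at day 3. Cyp4f39 fell at day 6, with a difference of -0.31 ± 0.08, and Psap rose at day 3 by 0.43 ± 0.07. Aloxe3, whose product works after that of Alox12b, was at 0.09 at day 6 and 0.23 at day 3 and did not pass. Of these calls that of Abhd5 and that of Sult2b1 at day 3 held under all alternatives run, and each of the others named ended under at least 1.

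Regulators of epidermal differentiation rose in 2 of 30 and fell in 4 at day 6, against 5.11% and 4.56% of all tested probe sets, and rose in 5 and fell in 1 at day 3, against 5.35% and 4.23%. The share that rose at day 6 was thus near that of all probe sets. Without 1 array, 1 or 2 rose and 1 or 2 fell at day 6, and 1 to 4 rose and 0 or 1 fell at day 3. The AP-1 subunit Fosl1 rose by 0.99 ± 0.13 at day 6 (adjusted p = 0.000807), and Hes1, a Notch target, fell, with a difference of -0.63 ± 0.10. The ETS factor Ehf rose by 1.19 ± 0.13 at day 3. The nuclear receptor Rora rose at both days, by 1.18 ± 0.26 at day 6 and 1.34 ± 0.26 at day 3, and Tfap2a fell at both, with -1.13 ± 0.24 and -1.01 ± 0.24. Without the trend the calls of Hes1, Rora and Tfap2a ended, and those of Rora and Tfap2a also ended without some single arrays (adjusted p = 0.0575 to 0.142).

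**Figure D5:**
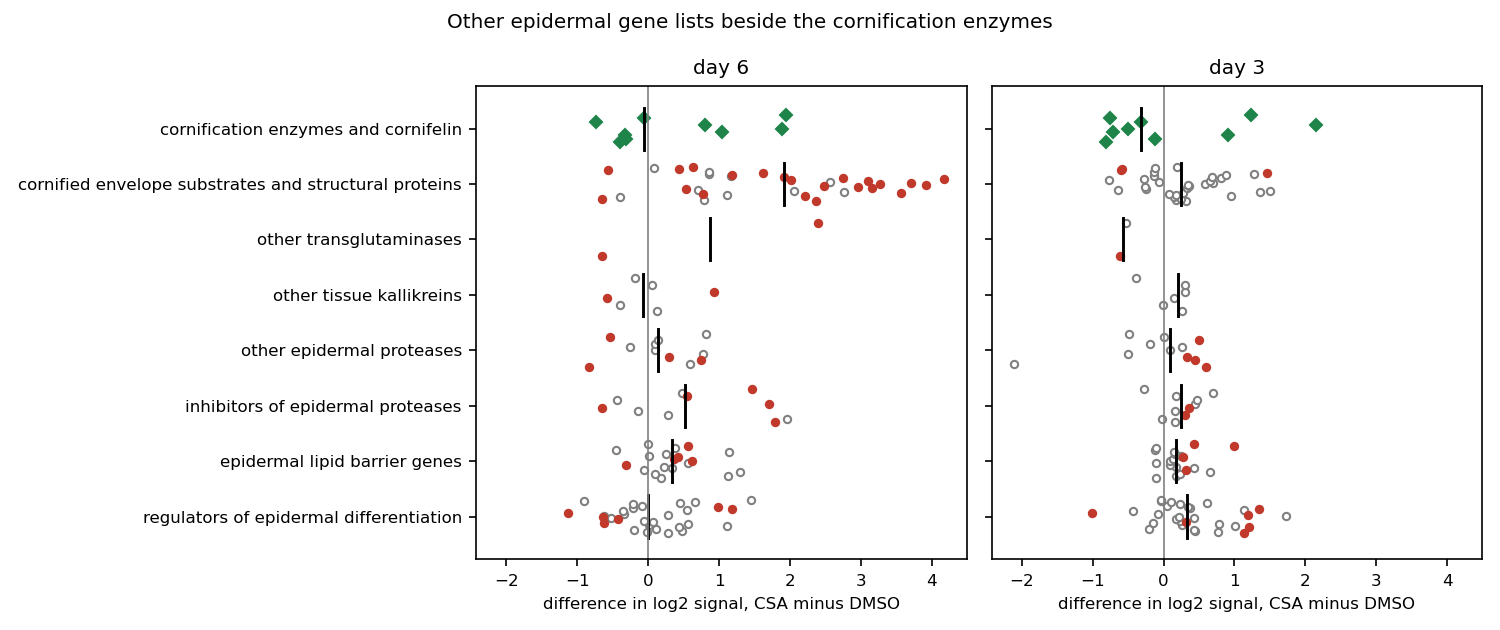
Difference in log2 signal, CSA minus DMSO (horizontal axis), of the 9 tested cornification genes (green diamonds) and of each tested gene in 7 lists of other epidermal genes, at day 6 (left) and day 3 (right). Red points passed at an adjusted p under 0.05, open points did not, the diamonds carry no test, and black lines are medians. The substrates lie mostly right of 0 at day 6, with a median of 1.92, while the cornification genes lie on both sides. The substrate list was written with late cornified envelope genes known to move, and the cornification genes were chosen on this contrast. Nothing is therefore read from how the 2 sets compare.

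The genes with the pattern most like the mean of the 9 tested cornification genes, each scaled to equal variance, were Hipk2, Rnf170, Col8a1, Rgp1, Dusp1, Ctdsp2, Smad3 and Tnfsf13b, with Pearson correlations of 0.996 to 0.988 over the 8 arrays. Each was higher on all day 6 arrays than on all day 3 arrays. For the members with the highest mean signals, the nearest genes were Cdkn2b (0.992), Filip1l (0.991) and Csf1 (0.991) for Asprv1, and Zmym1 (0.991), Rims2 (0.989) and Plekhg2 (0.988) for Tgm1. Cdkn2b had 10.97 and 11.05 in CSA cells and 10.32 and 10.17 in DMSO cells at day 6, and 10.01 and 9.97 in CSA cells and 9.44 and 9.41 in DMSO cells at day 3, with CSA cells higher at both days as for Asprv1. Plekhg2 had 9.63 and 9.56 in CSA cells and 10.04 and 10.04 in DMSO cells at day 6, and 8.52 and 8.27 in CSA cells and 9.04 and 9.05 in DMSO cells at day 3, with CSA cells lower as for Tgm1. With 8 arrays in 4 groups and 12529 genes to choose from, such correlations describe the order of the groups.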

How the data were processed

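Total RNA of 8 samples was hybridised to Affymetrix 3′ arrays. The values the authors deposited are log2 signals of 45037 probe sets, made with MAS5 per the submitters' processing notes. Its version is not given in the sources used here, nor is its scaling target. The method scales each array by a constant, and dim log2 signals are noisy. Detection calls, scan dates and batches were not used here. Those whose mean reached the 40th percentile of all means entered the test, with limma 3.58.1 in R 4.3.3: 1 mean per group over all 8 arrays (4 residual degrees of freedom), an intensity trend in the prior variance, two-sided tests, Benjamini-Hochberg adjustment over 27022 probe sets and a threshold of 0.05. The number of arrays limits the precision. The code was tested on simulated data. Genes were named from the platform annotation (34945 probe sets with 1 symbol, 932 with several, 9160 not listed), and the brightest probe set stood for a gene. The members and gene lists were chosen with earlier results of these data known. Named are all members, up to 3 genes per list with the smallest p at day 6 and 2 at day 3, a fixed set of epidermal genes, and the genes of most similar pattern. Marker lists are given as counts and sums, with the called reprogramming genes and the keratins called at day 6 in the stress and suprabasal list named. Whether same-numbered arrays pair was checked: their deviations from the group means correlated at -0.00 to 0.03. Promoter sequences are from RefSeq, GRCm38.p6, and all 10 members matched by symbol.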

Additional observations from a re-analysis of the deposited data

Results flagged for a closer look

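For Alox12b and Cnfn both CSA arrays lay on opposite sides of both DMSO arrays at the 2 days. The CSA effect at day 6 minus that at day 3 was -1.24 for Alox12b (-0.33 and 0.91) and 1.74 for Cnfn (1.04 and -0.71). These differences were not tested, since the genes were chosen on the contrasts they are made of.

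Among the other epidermal genes named, the interaction of day and CSA in limma's fit passed for 12 of the 31 tested, where 4.23% of all tested probe sets passed. Most of the 31 were named for a small p at 1 of the days, which favours a difference between the days, and late cornified envelope genes were known to move. Without the intensity trend all 12 calls ended, since 0 of all probe sets passed (4287 at an unadjusted p under 0.05, smallest adjusted p = 0.077). The effect at day 6 exceeded that at day 3 by 3.57 for Lce1d (adjusted p = 0.00186), 2.83 for Lce1a1 (0.00247), 2.69 for Lce1f (0.0117), 1.62 for Cst6 (0.0467), 1.02 for Sbsn (0.000914), 0.52 for Abhd5 (0.0258) and 0.37 for Serpinb6a (0.0423). It was lower at day 6, with differences of -1.43 for St14 (0.000781), -1.01 for Spint2 (0.000914), -0.91 for Ehf (0.0174), -0.85 for Hes1 (0.0103) and -0.44 for Psap (0.0258). The CSA effects of St14 and Spint2 were -0.83 and -0.65 at day 6 and 0.60 and 0.36 at day 3. Groups of 2 arrays were too small to look for single outlying arrays.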

How the results depend on the processing

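Without the intensity trend limma called 442 probe sets at day 3, 694 at day 6 and 0 for the interaction, where 4287 had an unadjusted p under 0.05, against 2588, 2612 and 1144. With probe sets left out that can read several genes, or several transcripts of a gene, 1672 and 1737 passed at day 3 and day 6, with fewer probe sets tested. Leaving out 1 array gave 1076 to 2008 at day 3, 1112 to 1717 at day 6, 5417 to 6068 for the days in CSA and 390 to 994 for the interaction. With the replicate block 2724 passed at day 3 and 2742 at day 6, and no count moved by over 1.5 times. The labels do not say that numbers pair arrays. Counts of cornification genes called between the days were run under the alternatives only with Klk7, which was kept out above. They are therefore not given. The count lying wholly above DMSO at day 6 was 3 to 5, against 4 in the main setting, where 26.4% of all tested probe sets did. Nothing is read from it, since the genes were chosen on this contrast. The count of envelope genes that rose at day 6 was 9 to 24, against 20 in the main setting, where 5.11% of all tested probe sets rose. That list was written with late cornified envelope genes known to move, and it holds Lce3c. Quantile normalization shifted the median change between the days by -0.14 in CSA and -0.13 in DMSO cells, and Alox12b in CSA cells to -0.11. Signs turned for values that had not passed when 1 array was left out: Alox12b -0.10 to 0.10 and Casp14 -0.049 to 2.00 between the days in CSA, Casp14 -0.34 to 0.90 in DMSO, Lce1a1 -0.029 to 0.68, Lor -0.50 to 0.86, Krt10 -0.29 to 0.014 and Cst6 -0.31 to 0.64 at day 3, and Psap -0.055 to 0.044 at day 6. Among the differences between CSA and DMSO given with no test, signs turned for Casp14 at day 6 (-0.68 to 0.56) and, at day 3, for Tgm3 (-0.38 to 0.13), Klk6 (-1.08 to 0.067) and Casp14 (-1.78 to 0.27). The causes were not tested. Dim signals limit Klk5 and Casp14, and Klk6 and Klk7 at day 3.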

Other observations

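Of 58 genes of the epidermal lists below the filter, 24 were brighter in CSA cells at day 6 with no overlap, 12 were dimmer with no overlap and 22 overlapped. Over all 18015 probe sets below the filter, 22.6% were brighter and 13.4% dimmer with no overlap. The examples that follow were chosen after their values were seen. Klk4 was dimmer, with 2.96 and 2.67 in CSA cells and 5.26 and 5.43 in DMSO cells at day 6. Klk1b27 was dimmer too, with 4.70 and 3.90 in CSA cells and 7.03 and 6.26 in DMSO cells. Lce1c had 7.77 and 7.08 in CSA cells and 2.20 and 1.22 in DMSO cells at day 6, and 1.80 and 4.86 in CSA cells and 2.46 and 4.80 in DMSO cells at day 3. Spink5, the gene of the kallikrein inhibitor, had 4.69 and 4.11 in CSA cells and 0.64 and 2.62 in DMSO cells at day 6. The basal keratin Krt5 had 5.93 and 6.21 in CSA cells and 4.18 and 2.22 in DMSO cells at day 6, and 5.23 and 6.09 in CSA cells and 6.14 and 6.16 in DMSO cells at day 3. These signals lie where MAS5 values are noisy and were not tested.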
